A study of Mus musculus with 10 samples.

Results

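The regions described here are bivalent bins of the mouse embryonic stem (ES) cell line XT67E1, stretches of 2 kb that carried both H3K4me3 and H3K27me3 before differentiation. Chromosomes 1 to 19 of the mm9 build were divided into 1236167 bins of 2 kb, and 564 of them (0.0456%) were chosen by their read numbers in undifferentiated XT67E1. The rule asked for at least 15 H3K4me3 reads and at least 20 H3K27me3 reads. The 564 bins were 4.60% of the 12267 bins that reached the H3K4me3 minimum and 1.45% of the 38774 bins that reached the H3K27me3 minimum. The values that chose the bins are given as a description, and no test rests on them.

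H3K4me3 is the trimethylation of lysine 4 on histone H3, placed around the start sites of active genes by Trithorax-type methyltransferases. H3K27me3 is the trimethylation of lysine 27 on the same histone, placed by Polycomb repressive complex 2 over silent genes. In ES cells both marks can lie on the promoters of silent developmental regulators, a state called bivalent or poised, and on differentiation such promoters are known to keep both marks or to resolve towards one of them. A bulk experiment cannot tell both marks on the same chromosomes from a mixture of cells that each carry one mark.

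The study profiled histone marks in mouse ES cells by chromatin immunoprecipitation and sequencing (ChIP-seq), in a series about X inactivation. XT67E1 (strain C3H/Pgk*129) gave 6 libraries, H3K4me3 and H3K27me3 each in undifferentiated cells, after all-trans retinoic acid (atRA) for 4 days, and in embryoid bodies (EBs) after 10 days without the self-renewal factor LIF. LF2 and E14, both of strain 129/Ola, gave H3K27me3 libraries of undifferentiated cells and of 10-day EBs. All cells had been kept in serum with LIF on gelatin, and it is known of these lines that E14 is male while LF2 and XT67E1 are female. The H3K4me3 antibody was from Diagenode and the H3K27me3 antibody came from T. Jenuwein. Every group had 1 library, so the ratios below have no replicate check. The 2 ways of differentiation differed in both agent and length, which cannot be told apart.

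The deposited files held 2252395 reads in each H3K4me3 library, 8380007 in each XT67E1 H3K27me3 library and 4531733 in each LF2 and E14 library, so read numbers can be compared directly within each of these 3 sets. An average autosomal bin held 1.74 to 1.75 H3K4me3 reads, 6.43 to 6.49 H3K27me3 reads in XT67E1 and 3.49 to 3.58 in LF2 and E14. Of the 564 bins, 62 held at least 8 times this average in every one of the 10 libraries, whatever the mark, line or condition. No other autosomal bin did so, which largely follows from the rule, since 8 times the average is near or above both minimums. Of the 62, 34 lay in a single run of 37 bivalent bins at chr11:3026001-3100000, near the start of the assembled sequence of that chromosome. Another 10 lay in the run of 11 bins at chr9:3014001-3040000, and shorter runs lay at chr9:3000001-3006000, chr2:98502001-98508000 and chr17:39980001-39986000. No library of input chromatin was used here, so the part of sequence copy number or mapping in these 62 bins was not tested. Values are therefore given for the 564 bins and, where they differ, for the 502 others. The annotation supplied was of another build than mm9, so no bin could be assigned to a gene, and bins are given by position alone.

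The bivalent bins were mostly isolated. Joining those with at most 1 other bin between them gave 492 runs, of which 467 were single bins, 20 were pairs and 3 were triples. In undifferentiated XT67E1 the bins ranged from 15 to 346 H3K4me3 reads with a median of 21.0, and from 20 to 529 H3K27me3 reads with a median of 28.0. Outside the 62 bins the highest values were 125 and 96 reads, so the largest numbers all belonged to bins that were high everywhere. The 64 bins exactly at 15 H3K4me3 reads had a median of 31.5 H3K27me3 reads, and the 102 bins that missed the rule by a single H3K4me3 read had 30. The 46 bins exactly at 20 H3K27me3 reads had a median of 20 H3K4me3 reads, and the 57 that missed by a single H3K27me3 read had 22. The edge of the set is thus a line through a continuous range of values.

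H3K4me3 was a narrow peak on these bins and H3K27me3 a broad one. Over the 502 bins, mean undifferentiated H3K4me3 was 12.8 times the average autosomal bin, 3.56 times at 2 kb to the right and 1.71 times at 4 kb. H3K27me3 in undifferentiated XT67E1 was 4.58 times the average in the bin and still 2.61 times at 4 kb to the left and 2.67 times at 4 kb to the right. A neighbouring bin that itself reached the H3K27me3 minimum was present for 79.3% of the 564 bins, and one that reached the H3K4me3 minimum for 26.95%. Over the 502 bins these shares were 77.7% and 19.5%. Of all autosomal bins, 3.14% reached the H3K27me3 minimum and 0.99% the H3K4me3 minimum, so the shares of the marks are not on one scale. Among the 10857 bins with H3K4me3 alone (at least 15 H3K4me3 and at most 10 H3K27me3 reads), 45.8% had an H3K4me3 neighbour and 3.44% an H3K27me3 neighbour. Among the 30034 bins with H3K27me3 alone (at least 20 H3K27me3 and at most 3 H3K4me3 reads), 59.9% had an H3K27me3 neighbour. The rule used the bins themselves and not their neighbours, and these shares were not tested against each other.

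**Figure D1:**
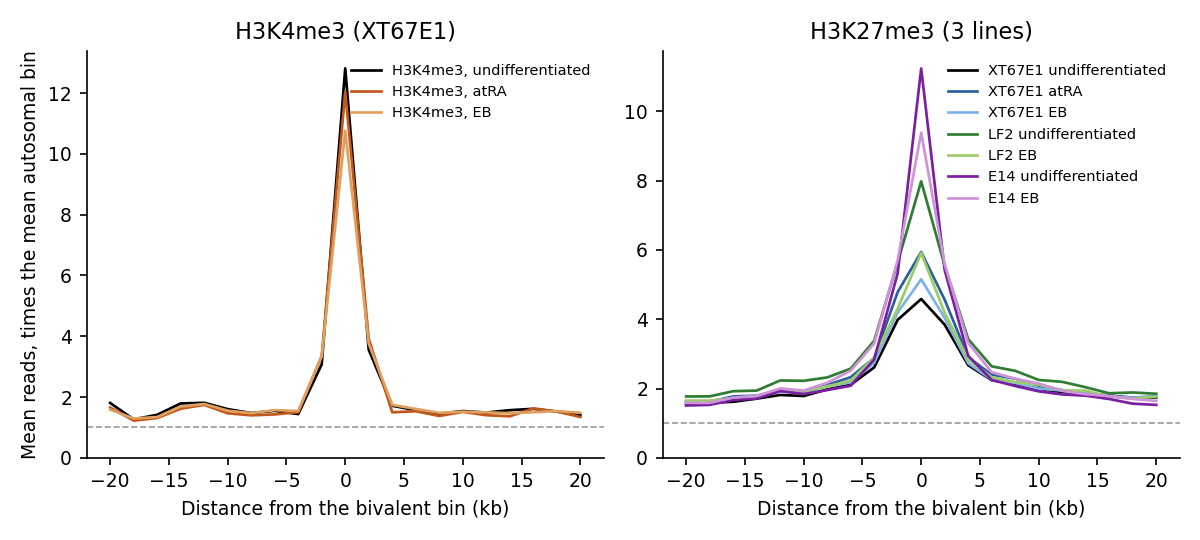
Mean reads per 2 kb bin around the 502 bivalent bins outside those high in every library, as multiples of the average autosomal bin of each library (y axis, linear), against distance from the bin in kb (x axis). H3K4me3 in XT67E1 (left) falls to 1.71 times the average within 4 kb in undifferentiated cells, whereas H3K27me3 in the 3 lines (right) slopes down over a wider stretch; the dashed line is the average bin.

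At the same bins H3K4me3 was weaker than at bins with H3K4me3 alone. The median undifferentiated H3K4me3 level was 10.9 times the average bin over the 502 bivalent bins and 18.9 times over the bins with H3K4me3 alone. The median H3K27me3 level was 4.16 times the average in the bivalent bins and 3.70 times in the bins with H3K27me3 alone. Both levels come from the libraries that chose the bins. H3K27me3 in LF2 and E14, which the rule did not use, was 7.37 and 9.53 times the average in the bivalent bins, against 3.68 and 2.24 times in the bins with H3K27me3 alone.

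**Figure D2:**
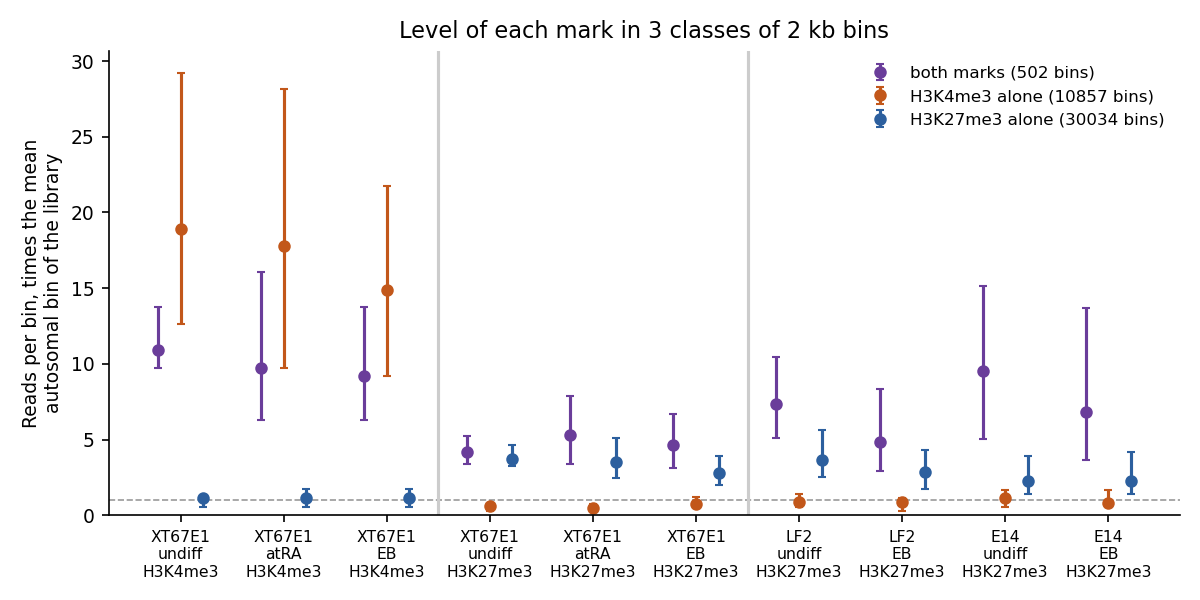
Level of each mark in each of the 10 libraries (x axis), as multiples of the average autosomal bin of the library (y axis), for the 502 bivalent bins, the bins with H3K4me3 alone and the bins with H3K27me3 alone; points are medians and bars span the middle 50% of bins. The bivalent bins stand above the bins with H3K27me3 alone in all 7 H3K27me3 libraries and stay between the other classes in H3K4me3.

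The bivalent bins were unevenly spread over the chromosomes. Chromosome 8 held 84 of them, or 14.9%, with 5.33% of the bins, and chromosome 13 held 7, or 1.24%, with 4.87% of the bins. Chromosome 11 held 77, of which 41 lay outside the bins high everywhere. Chromosome 8 as a whole had 1.49 times the average autosomal read density in undifferentiated XT67E1 H3K27me3 and 1.44 times in H3K4me3, against 0.989 in undifferentiated E14. A higher read density lets more bins pass fixed minimums, and the part of chromosome 8 copy number in its share of the bins was not tested. At the 83 chromosome 8 bins outside those high everywhere, median undifferentiated H3K27me3 was 3.74 RPM (reads per 1000000 autosomal reads) in XT67E1, 5.96 in LF2 and 4.99 in E14. At the 419 other bins it was 3.24, 5.96 and 8.16, so the chromosome 8 bins were the higher ones in XT67E1 and the lower ones in E14. LF2 density on chromosome 8 was 1.23 undifferentiated and 1.39 in EBs.

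Both differentiated states held both marks on many of the bins, and at the rule's unlike minimums H3K27me3 alone outnumbered H3K4me3 alone. At the rule's read numbers, 272 of 564 bins (48.2%, exact binomial 95% interval 44.0 to 52.4, counting error only) still held both marks after atRA. H3K27me3 alone was left on 179 bins (31.7%), H3K4me3 alone on 94 (16.7%) and neither on 19 (3.37%). In EBs 253 bins (44.9%, 40.7 to 49.1) held both, 189 (33.5%) H3K27me3 alone, 99 (17.6%) H3K4me3 alone and 23 (4.08%) neither. The 62 bins high in every library were all in the class with both marks, which largely follows from how they were defined. Without them the share with both was 41.8% after atRA and 38.0% in EBs.

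These shares describe how far reads fell around fixed minimums, since many bins began close to them. Counting a mark as lost only under 8 H3K4me3 or under 10 H3K27me3 reads, 486 bins kept both marks after atRA (86.2%) and 504 in EBs (89.4%). On that count 57 bins had H3K27me3 alone and 20 H3K4me3 alone after atRA, and 52 and 8 in EBs. On either count and in both states, more bins had H3K27me3 alone than H3K4me3 alone, at the read totals of the files. The minimums of the marks are not alike, since the average undifferentiated bin held 1.745 H3K4me3 and 6.489 H3K27me3 reads. The H3K27me3 minimums of 20 and 10 reads are thus lower multiples of their average than the H3K4me3 minimums of 15 and 8. The order of the single-mark classes was not tested at like minimums. The classes were not counted under another scaling or for a background of other bins. Lower H3K4me3 in EBs was not particular to these bins. Its median log2 ratio was -0.33 over all autosomal bins with 20 or more reads in the 2 libraries together. The part of scaling in these shares was not tested.

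**Figure D3:**
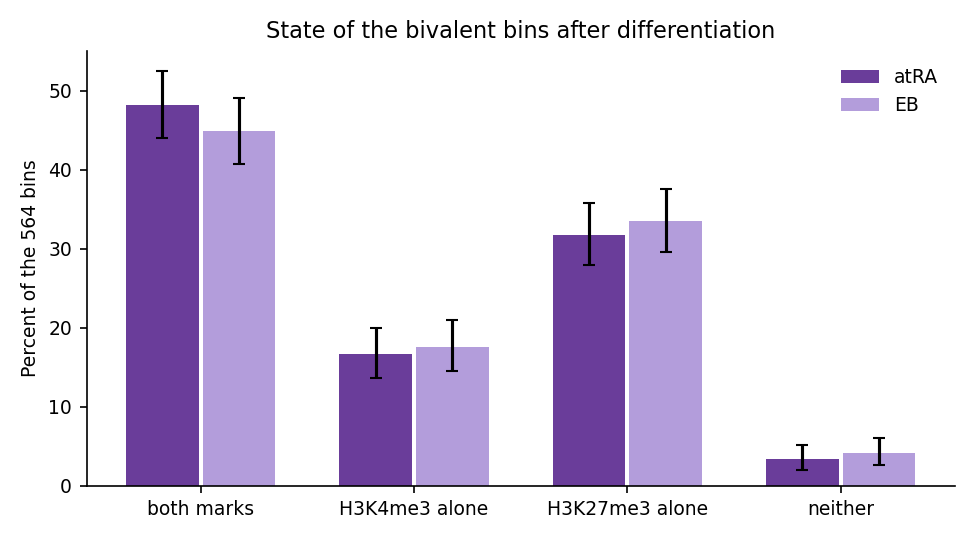
Percent of the 564 bins (y axis, from 0) with both marks, H3K4me3 alone, H3K27me3 alone or neither at the rule's read numbers, after 4 days of atRA and in 10-day EBs; bars carry exact binomial 95% intervals, which cover counting error only. Both marks were kept on 48.2% after atRA and 44.9% in EBs.

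Most bins were in the same class in both differentiated states. Of the 564 bins, 364 (64.5%) had the same class after atRA and in EBs: 177 with both marks, 126 with H3K27me3 alone, 51 with H3K4me3 alone and 10 with neither. The 62 bins high in every library are among the 177, which largely follows from their definition and raises the share. Opposite single marks were seen in 13 bins, 7 with H3K4me3 alone after atRA and H3K27me3 alone in EBs, and 6 the other way. Another 55 bins had both marks after atRA and H3K27me3 alone in EBs, against 41 the other way.

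For single bins, a change was called where the log2 ratio of scaled reads (with 1 read added to each) was 2-fold or more, its exact binomial 95% interval excluded 1 and the libraries held at least 20 reads together. H3K4me3 after atRA was called higher in 31 and lower in 66 of 557 bins tested, where 4.76% and 12.2% of all autosomal bins tested were called. The median log2 ratio over the 564 bins was -0.18, and over all autosomal bins tested it was -0.06. In EBs H3K4me3 was called higher in 13 and lower in 68 of 559 bins, where 2.88% and 12.8% of all tested bins were called. The median was -0.28 there, close to the -0.33 of all tested bins, and with median-of-ratios scaling it became 0.05. With that scaling 7.16% of the bins were called higher and 5.19% lower, so the balance of calls in EBs turned. The undifferentiated library that chose the bins is in each of these ratios, and nothing is read from the counts beside their background. With bins chosen on the odd-numbered rows of the files and measured on the even-numbered rows, the medians were -0.16 and -0.28. In a file ordered by position, alternate rows hold nearly equal reads of each bin. The row order was not checked, so this split does not show the ratios to be free of the choice of bins.

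Among called bins whose compared libraries held 30 reads or more together, H3K4me3 had its lowest ratios, after atRA and in EBs, at chr8:15028001-15030000. This bin had 107 H3K4me3 reads undifferentiated, 17 after atRA and 17 in EBs, log2 ratios of -2.58 and -2.58 (both called lower). Its H3K27me3 reads were 33, 99 and 65 in XT67E1, with H3K27me3 called higher after atRA at a log2 ratio of 1.56. H3K4me3 at chr2:31938001-31940000 had 45, 8 and 17 reads in the same order, and at chr14:77556001-77558000 it had 27, 6 and 9. At chr11:11936001-11938000 it had 29, 10 and 6 reads, and at chr8:114414001-114416000 32, 8 and 8. In all 5 of these bins XT67E1 H3K27me3 was above its undifferentiated read number in both differentiated states.

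H3K4me3 also rose at some bivalent bins. At chr19:36422001-36424000 it had 16 reads undifferentiated, 50 after atRA and 30 in EBs, a log2 ratio of 1.59 after atRA. At chr17:15962001-15964000 the reads were 17, 52 and 43, and at chr14:26278001-26280000 they were 16, 49 and 32. In EBs the largest rises were at chr8:109034001-109036000, with 18, 20 and 54 reads, and at chr8:35870001-35872000, with 24, 61 and 71. The first of these 2 was thus high in EBs alone and the second in both differentiated states.

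H3K27me3 in XT67E1 after atRA was called higher in 67 and lower in 29 of 564 bins, where 3.66% and 2.13% of all autosomal bins tested were called, and the median log2 ratio was 0.17. In EBs 28 were called higher and 24 lower, where 2.15% and 4.15% of all tested bins were called, and the median was -0.03. The medians of all tested bins were 0.08 and -0.10. The EB median was 0.01 over the 502 bins and 0.08 with median-of-ratios scaling, so its sign is not settled. The EB calls also depended on the scaling, with 8.87% higher and 2.66% lower under median-of-ratios scaling and 2.48% and 10.3% under background scaling. After atRA those scalings gave 9.93% and 5.497%, and 16.0% and 4.43%, and the difference between atRA and EBs was not tested. Both comparisons use the undifferentiated library that chose the bins, and they share it.

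The highest called H3K27me3 ratios after atRA were at chr4:99322001-99324000, with 20 reads undifferentiated, 77 after atRA and 38 in EBs, and at chr7:146766001-146768000, with 23, 81 and 49. H3K4me3 at these bins went from 34 to 8 and 10 reads and from 21 to 3 and 6 reads. At chr8:12396001-12398000 H3K27me3 had 29 reads undifferentiated, 87 after atRA and 96 in EBs. Among called bins with 50 reads or more, the lowest EB ratio was at chr11:120810001-120812000, with 40, 40 and 11 H3K27me3 reads, a log2 ratio of -1.76 in EBs, and 31, 38 and 67 H3K4me3 reads. H3K27me3 reads at that bin were thus unchanged after atRA and lower in EBs.

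Where both marks changed at a bin, they changed in opposite directions with 1 exception. After atRA 28 bins were called lower in H3K4me3 and higher in H3K27me3, 5 were called higher in H3K4me3 and lower in H3K27me3, none was higher in both and 1 was lower in both. In EBs the numbers were 13, 3, 0 and 0. The 66 bins with H3K4me3 lower after atRA had a median H3K27me3 log2 ratio of 0.92 after atRA, with 60 of 66 above 0, and the 31 bins with H3K4me3 higher had -0.51, with 7 of 31 above 0. The 467 remaining bins, 7 of them with too few reads for a call, had 0.10. Opposite calls were also seen outside the bivalent bins. Of 1680 bins with H3K4me3 alone before differentiation and H3K4me3 called lower after atRA, 131 were called higher in H3K27me3 and 0 lower. Their median H3K27me3 log2 ratio was 0.32, against -0.16 for the 100 called higher and 0.001 for the rest. Their few undifferentiated H3K27me3 reads left little room for a lower call. Joint calls over all autosomal bins are not given here. Over the 564 bins Spearman's rho between the H3K4me3 and H3K27me3 log2 ratios was -0.55 after atRA and -0.51 in EBs. The marks come from separate libraries of the same line and condition, whereas the bins share their libraries and were chosen on both undifferentiated ones, so no p-value is given.

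**Figure D4:**
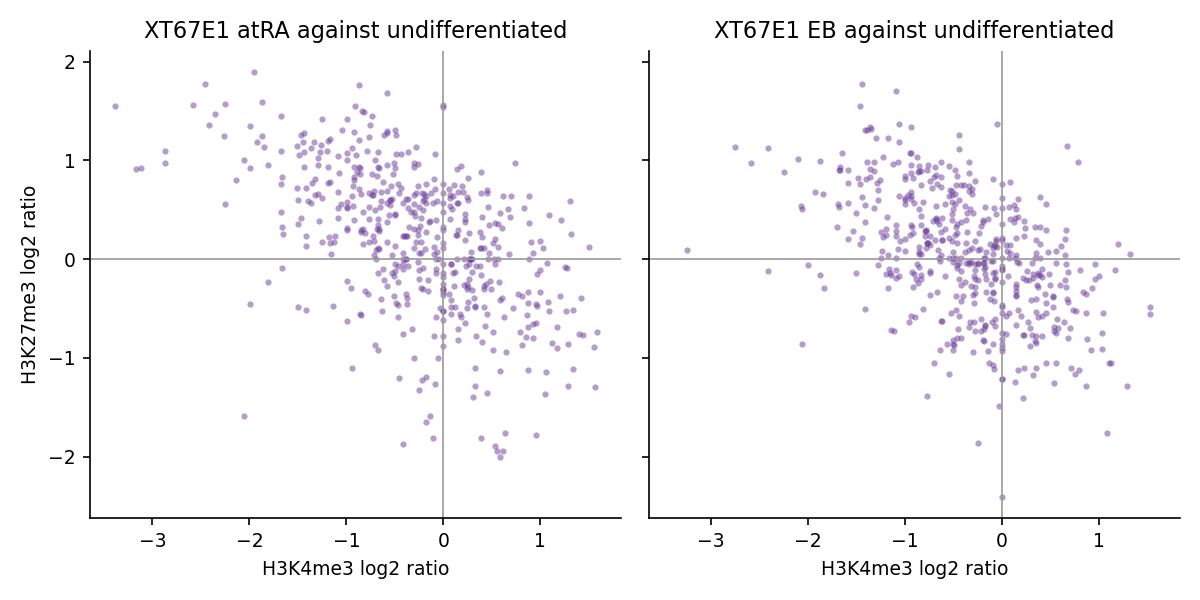
Log2 ratio of H3K27me3 (y axis) against that of H3K4me3 (x axis) for the 502 bivalent bins outside those high in every library, after atRA (left) and in EBs (right) of XT67E1, each against undifferentiated cells; every point is a bin. The cloud runs from upper left to lower right in both panels.

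In EBs the bins with the largest opposite changes included chr5:37260001-37262000. Its H3K4me3 had 26 reads undifferentiated, 15 after atRA and 3 in EBs, and its H3K27me3 had 22, 58 and 49. At chr8:28338001-28340000 H3K4me3 had 45, 28 and 16 reads and H3K27me3 20, 25 and 70, so that its H3K27me3 gain was seen in EBs. H3K27me3 at that bin was also higher in EBs of the other lines, with 7 and 31 reads in LF2 and 18 and 50 in E14. The opposite resolution was seen at chr17:15962001-15964000, named above for its rise in H3K4me3, where H3K27me3 went from 26 reads to 10 and 10, and at chr12:15822001-15824000, where H3K4me3 had 15, 22 and 34 reads and H3K27me3 24, 24 and 11.

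EBs and atRA-treated cells were also compared directly, which leaves out the libraries that chose the bins. H3K4me3 was called higher in EBs in 12 and lower in 27 of 479 bins tested, where 2.45% and 5.2% of all autosomal bins tested were called. H3K27me3 was called higher in EBs in 14 and lower in 23 of 558 bins, where 1.68% and 5.16% were called. The median log2 ratios were -0.12 and -0.16, against -0.26 and -0.20 over all tested bins. The bivalent bins' shares of calls were thus near the background in H3K4me3. In H3K27me3 2.51% were called higher and 4.12% lower, and over the bins outside those high in every library 2.82% and 4.64%. Among the bins that differed, H3K4me3 at chr8:108042001-108044000 had 16 reads undifferentiated, 5 after atRA and 26 in EBs, and at chr2:69422001-69424000 22, 46 and 11. H3K27me3 at chr17:84030001-84032000 had 39, 96 and 38 reads, a gain seen after atRA that was not seen in EBs.

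Most bins that were bivalent in XT67E1 also carried H3K27me3 in the other lines. With the minimum scaled to the depth of those files (11 reads), 532 of 564 bins (94.3%) reached it in undifferentiated LF2 and 518 (91.8%) in undifferentiated E14, where 4.84% and 2.77% of all bins did. Among bins with H3K27me3 alone in XT67E1 the shares were 66.0% and 37.1%, and among bins with H3K4me3 alone 3.64% and 9.11%. The rule did not use these libraries. A total of 497 bins reached the minimum in both lines and 11 in neither. In EBs 438 bins (77.7%) reached it in LF2 and 458 (81.2%) in E14.

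H3K27me3 was called lower at a part of these bins in EBs of both lines, in LF2 at a share nearer to that of other bins. In LF2 it was called higher in 15 and lower in 99 of 524 bins, where 1.98% and 12.5% of all autosomal bins tested were called. In E14 it was called higher in 24 and lower in 109 of 522 bins, where 9.11% and 6.07% were called. The share called lower was 18.9% in LF2 and 20.9% in E14, and among bins with H3K27me3 alone it was 15.5% and 4.93%. The median log2 ratio over the 564 bins was -0.40 in LF2 and -0.31 in E14, against -0.33 and 0.16 over all tested bins. Over the bins with H3K27me3 alone it was -0.40 and -0.003, so the LF2 median was not particular to the bivalent bins. In LF2 the share called lower was 9.35% with median-of-ratios scaling and 42.4% with background scaling, and the share called higher 5.73% and 1.15%. The LF2 median moved to -0.07 and -0.92 with these scalings, whereas in E14 it lay between -0.24 and -0.47 under the scalings tried. The bivalent bins held more reads in undifferentiated E14 than the bins with H3K27me3 alone (median 38.0 against 8.0). A call needs enough reads, and the part of read number in the difference was not tested.

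A set of bins was called lower in both other lines. Of the 504 bins with enough reads in both lines, 51 were called lower in both (10.1%), where 2.46% of the 24229 autosomal bins tested in both were. Higher in both were 5 bins (0.992%, against 0.714%), and 1 bin was lower in one line and higher in the other. The part of read number in these shares was not tested. Spearman's rho between the LF2 and E14 log2 ratios over the 564 bins was 0.50, with no library in common.

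H3K27me3 was then tested over LF2 and E14 together with limma, with the line as a block, over the 240259 autosomal bins that held 20 reads or more, summed over the 4 libraries. Of the 562 bivalent bins tested, 12 were lower in EBs and 3 higher at a Benjamini-Hochberg adjusted p under 0.05. Of all tested bins 0.0587% were lower and 0.0599% higher, and of the 28133 tested bins with H3K27me3 alone 0.114% and 0.018%. At an unadjusted p under 0.05, 122 bivalent bins were lower and 20 higher, where 9459 and 6995 of all 240259 tested bins were. The part of read number in these differences was not tested. The design leaves 1 residual degree of freedom per bin, so the p-values rest on the spread pooled over all bins. No bin was called with limma voom, without the block or without a read minimum.

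The lowest of the 12 was chr10:31328001-31330000, with 42 reads in undifferentiated LF2, 4 in LF2 EBs, 85 in undifferentiated E14 and 15 in E14 EBs. Its limma log2 change was -2.76 ± 0.49 (SE), with an adjusted p of 0.000162. At chr19:30104001-30106000 the reads were 21, 5, 61 and 4 in the same order, a change of -2.75 ± 0.51 with an adjusted p of 0.000424 in limma. At chr16:22162001-22164000 they were 10, 2, 61 and 5, and at chr8:47824001-47826000 29, 8, 22 and 2. In these 4 bins each EB library was below the undifferentiated library of its own line. The H3K27me3 log2 ratio of XT67E1 EBs was below 0 in all 12 bins, with a median of -0.60. Of the 12, 3 were called lower, where 4.15% of all autosomal bins tested were.

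H3K4me3 in XT67E1 was above its undifferentiated level after atRA in 10 of these 12 bins, and 7 of the 12 were called higher. The share called higher was 5.57% of the bivalent bins tested and 4.76% of all autosomal bins tested. At chr19:30104001-30106000, for example, H3K4me3 had 30 reads undifferentiated, 77 after atRA and 50 in EBs, and at chr14:26278001-26280000, with 44, 16, 84 and 10 H3K27me3 reads in LF2 and E14, it rose from 16 to 49. The exceptions were chr4:135698001-135700000 and chr15:78858001-78860000. At the first, H3K4me3 had 15 reads undifferentiated, 5 after atRA and 5 in EBs, and H3K27me3 went from 69 to 16 in LF2 and from 35 to 8 in E14. Read numbers of both marks were thus lower in the differentiated cells there. At the second, H3K4me3 had 17, 10 and 21 reads.

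The 3 bins higher in limma were the adjacent bins at chr17:39980001-39986000, which belong to the 62 bins high in every library. Over the 3 together H3K27me3 had 1180 reads undifferentiated, 2888 after atRA and 3377 in EBs of XT67E1. It had 680 and 2168 reads in LF2 and 1434 and 2758 in E14, while H3K4me3 had 694, 576 and 649. H3K27me3 reads were thus higher after differentiation in every line and H3K4me3 reads were not. The part of sequence copy number was not tested.

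Grouped by their H3K4me3 call after atRA in XT67E1, the bins also differed in the H3K27me3 libraries of the other lines, with which that call shares no library. The 31 bins with H3K4me3 called higher after atRA had a median H3K27me3 log2 ratio of -1.30 in LF2 EBs and -1.67 in E14 EBs. Of these, 19 were called lower in LF2 and 23 in E14, and 0 and 1 higher. Over all autosomal bins tested, 12.5% and 6.07% were called lower and 1.98% and 9.11% higher. The 66 bins with H3K4me3 called lower had medians of -0.01 in LF2 and 0.01 in E14, with 5 and 6 called lower. The remaining 467 had -0.40 and -0.30. In XT67E1 itself the EB medians of the same 3 classes were -0.28, 0.56 and -0.05. Grouped by the H3K4me3 call in EBs instead, the 13 bins called higher had medians of -0.83 in LF2 and -0.83 in E14. The 68 called lower had -0.08 and 0.075. Bins with H3K4me3 alone before differentiation ran the same way by the atRA call. Their LF2 and E14 medians were -0.40 and -0.42 where H3K4me3 was called higher, and 0.28 and 0.15 where lower. With 1 library per group these differences between classes were not tested.

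**Figure D5:**
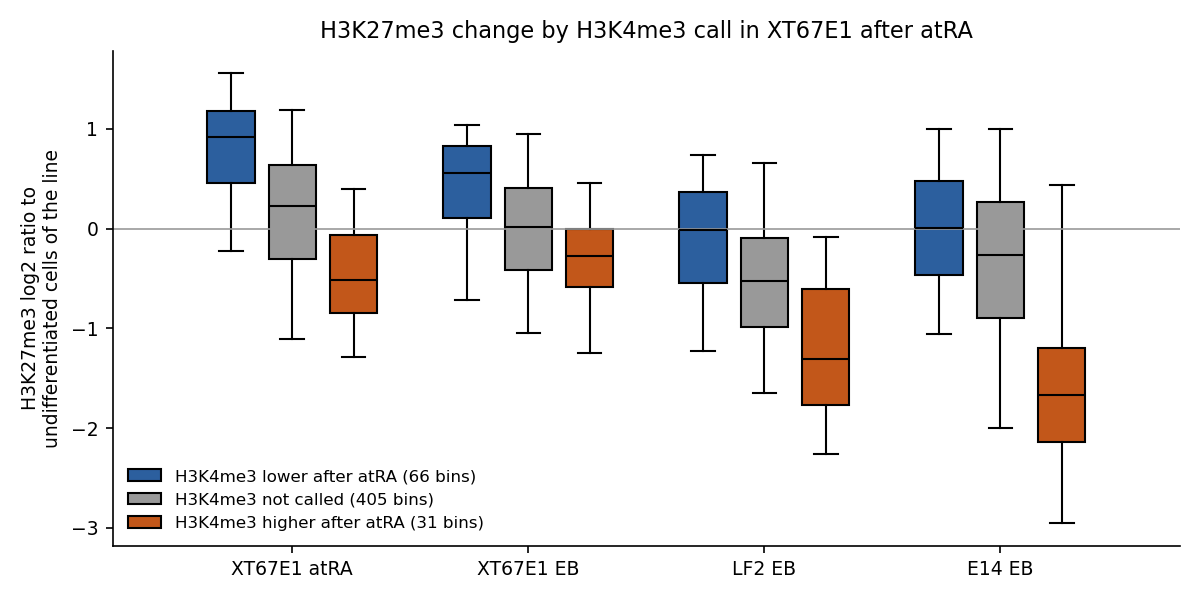
Log2 ratio of H3K27me3 to undifferentiated cells of the same line (y axis) in XT67E1 after atRA and in EBs of XT67E1, LF2 and E14 (x axis), for the 502 bivalent bins split by the H3K4me3 call in XT67E1 after atRA. Lines in the boxes are medians, boxes span the middle 50% of bins and whiskers the 5th to 95th percentile; bins with H3K4me3 higher have the lowest median in all 4 comparisons.

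Seen from the other lines, the 51 bins called lower in H3K27me3 in both LF2 and E14 had a median H3K4me3 log2 ratio of 0.63 after atRA and 0.32 in EBs of XT67E1, with 38 and 36 of the 51 above 0. Their H3K27me3 median in XT67E1 was -0.39 after atRA and -0.36 in EBs, with 44 of 51 below 0 in EBs. The 328 bins tested in both lines and called in neither had H3K4me3 medians of -0.36 and -0.46 and H3K27me3 medians of 0.35 and 0.09. Of these, 272 lay outside the bins high in every library, with H3K4me3 medians of -0.50 and -0.62 and H3K27me3 medians of 0.55 and 0.23. Bins called lower in both LF2 and E14 thus had H3K4me3 medians above 0 in XT67E1, and bins called in neither had medians below 0. Bins called lower in 1 line alone lay between. The 48 lower in LF2 alone had H3K4me3 medians of -0.03 after atRA and 0.03 in EBs. The 57 lower in E14 alone had 0.18 and -0.24. The H3K4me3 values rest on the library that chose the bins, and H3K4me3 was measured in XT67E1 alone.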

How the data were processed

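The deposited files list read positions, intervals of 200 bp with no value, strand or repeated interval, on mm9 per the submitters' processing notes. The sources used here do not name the aligner or read filters. The authors' files hold equal read numbers within a set, so a stronger or weaker pull-down cannot be seen in the totals. Interval midpoints were counted in 2 kb bins and scaled to autosomal reads. Log2 ratios used a pseudocount of 1 read, which understates changes of bins with few reads. Intervals are exact conditional binomial (Clopper-Pearson) and cover counting error only.

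H3K27me3 in LF2 and E14 was tested on log2 RPM with limma 3.58.1 (R 4.3.3), with an intensity trend, two-sided, p-values Benjamini-Hochberg adjusted over all bins tested. Libraries of a line come from the same line, which pairs them. Their deviations from the condition means correlated at 0.117. Counting and ratios used Python 3.11.15, numpy 2.4.6, pandas 2.3.3 and scipy 1.17.1. The calls and the limma fit were tested on simulated data.

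The members, gene lists and comparison classes were chosen with earlier results of these data known. Named bins, none on chromosome 18, are from the 5 longest runs, the 3 largest joint changes per direction in EBs, the 3 highest and 3 lowest called ratios per comparison with at least 30 (H3K4me3) or 50 (H3K27me3) reads, and the 5 highest and lowest limma calls. The exception chr15:78858001-78860000 was named after its values were seen. The alternatives were no read minimum, 5 reads added, background and median-of-ratios scaling, bins shifted by 1 kb, a stricter rule, no chromosome 8, 1 bin per run, a split of the file rows, limma voom and no block. Leaving out the bins high in every library was added after seeing the data. The gene lists could not be placed on mm9 and are not analysed here.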

Additional observations from a re-analysis of the deposited data

Results flagged for a closer look

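In XT67E1 the median H3K27me3 log2 ratio over the 564 bins was above 0 after atRA (0.17) and below 0 in EBs (-0.03), a difference of 0.19. It stands out because the sign differs between the conditions. The comparisons share their undifferentiated library, each condition is a single library, and the difference was not tested. Over the 502 bins outside those high in every library both medians were above 0, at 0.25 and 0.01.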

How the results depend on the processing

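Of the 86 repeats of the main values, 46 stayed within their 95% interval or within 1.5 times, 32 moved and 8 changed sign. Under the stricter rule, 53 of the 64 bins kept were among those high in every library. The medians there were 0.026 (H3K4me3 atRA) and -0.35 (XT67E1 H3K27me3 atRA), both with the opposite sign, and 0.16 in LF2, also opposite. They were -0.11 (H3K4me3 EB), -0.23 (XT67E1 H3K27me3 EB) and -0.41 (E14). Background scaling gave -0.35 for H3K4me3 in EBs, 0.27 and -0.27 for XT67E1 H3K27me3 after atRA and in EBs, -0.92 in LF2 and -0.24 in E14. Median-of-ratios scaling gave 0.0525 for H3K4me3 in EBs, 0.077 for XT67E1 H3K27me3 in EBs, -0.067 in LF2 and -0.47 in E14. It shifted all log2 ratios by 0.33 for H3K4me3 in EBs and for LF2. The causes of these moves were not tested. XT67E1 H3K27me3 in EBs had a median of 0.0086 with bins shifted by 1 kb and of 0.0123 both with 1 bin per run and without the bins high in every library. With 1 bin per run and without those bins, XT67E1 H3K27me3 after atRA had 0.25 both times and LF2 had -0.50 and -0.51.

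The 12 bins lower in limma became 0 without a read minimum, 7 with 5 reads added, 0 with voom, 0 with no replicate block, 4 with median-of-ratios scaling and 0 under the stricter rule. The 3 higher became 0 without a read minimum, with voom, without the block and without the bins high in every library. Over all autosomal bins, 44252 had an unadjusted p under 0.05 without a read minimum, 18355 with voom and 11650 without the block. No line could be left out, since no residual degree of freedom would remain.

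The share with both marks was 86.2% (atRA) and 89.4% (EB) at the lower minimums of 8 and 10 reads, 89.1% and 84.4% under the stricter rule, 43.1% and 39.2% with 1 bin per run, and 41.8% and 38.0% without the bins high in every library. Of 108 repeats of the shares of bins called, 26 moved by more than 1.5 times. Single libraries and few reads per bin limit all calls.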
